A study of Sus scrofa with 67 samples.

Results

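The genes described here make ribosomes or transcribe their RNA. They are the symbols in the deposited count table that begin with NOP, UTP or RRP followed by a digit, the subunits of RNA polymerase I, and RRS1, FBL, NCL, DKC1, DDX10, WDR12 and NPM1. They were picked by name, with earlier results of these data known, and 39 of the 18158 genes in the table qualified. BOP1, POLR1D and POLR1H also fall under these names, but no row of the count table used here carries those symbols. By role the set holds 6 subunits of RNA polymerase I, 2 abundant nucleolar proteins (NCL and NPM1), 5 proteins of the small nucleolar RNA particles, 17 factors of the small ribosomal subunit and 9 of the large subunit.

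In the nucleolus RNA polymerase I copies the ribosomal RNA genes into a long precursor. Small nucleolar RNA particles guide the methylation and pseudouridylation of that precursor, while a large assembly called the small subunit processome folds and cuts it, and other factors build the large subunit. Muscle growth needs ribosomes to translate contractile protein, and synthesis of new ribosomes in muscle is known to respond to loading, feeding and growth signals.

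The muscle studied was the longissimus dorsi of the back, sampled from 67 Swiss Large White pigs after weaning and profiled by RNA sequencing. During weeks 1 to 4 there were 2 diets: a standard one (STD, 6 libraries) and one low in protein (LP, 6 libraries), whose crude protein was 81% (total) or 79% (digestible) of the standard while digestible amino acids met requirement in both. During weeks 5 to 8 there were 4 groups of 12 libraries. STD-STD pigs came from STD and kept the standard diet, whereas the other 3 groups came from LP: LP-STD pigs changed to the standard diet, and LP-STD10 and LP-STD20 pigs to versions with digestible lysine raised by 10% and 20% and the other essential amino acids above requirement. A further group of 7 libraries is labelled BL, which the labels do not explain. The description of the design mentions 7 piglets not used further, without tying them to BL. The week of sampling, sex and litter are not given for each library, and 33 females and 34 castrated males from 20 litters were used in all. Groups of the first and second period also differ in age and in library number, and these cannot be told apart from diet in comparisons across periods.

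Total counts were 26680567 to 36935497 per library, and the set took 0.0672% to 0.1604% of them. Levels are given as CPM, the count of a gene scaled to a common library size with TMM factors, and are compared between groups and not between genes, since transcript lengths were not used. Differences are log2 values with their standard error from edgeR's quasi-likelihood test, with Benjamini-Hochberg adjustment over all genes tested. A gene is said to rise or fall where its adjusted p was under 0.05. NOP16 was close to the detection limit, at 0 to 0.691 CPM, and was too low to be tested in LP against STD. The muscle fibre markers ACTA1, CKM, TNNT3 and TTN together held 113342 to 317911 CPM in every library. In bulk tissue, fewer cells of a type and less RNA per cell cannot be told apart. The p-values treat each library as an independent pig.

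3 libraries in 3 different groups stood apart in these genes. The mean log2 level of the set was 4.37 in BL replicate 4, against 3.81 to 4.09 in the other BL libraries. It was 4.34 in STD replicate 2, against 3.87 to 3.92 in the other STD libraries. It was 4.40 in LP-STD20 replicate 9, against 3.70 to 3.94 in the rest of that group. Of the 39 genes, 11 had their highest value of all 67 libraries in BL replicate 4, 11 in LP-STD20 replicate 9 and 8 in STD replicate 2. Over all 13517 genes tested, BL replicate 4 held the maximum of 18.3%, LP-STD20 replicate 9 of 5.87% and STD replicate 2 of 1.52%.

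**Figure D1:**
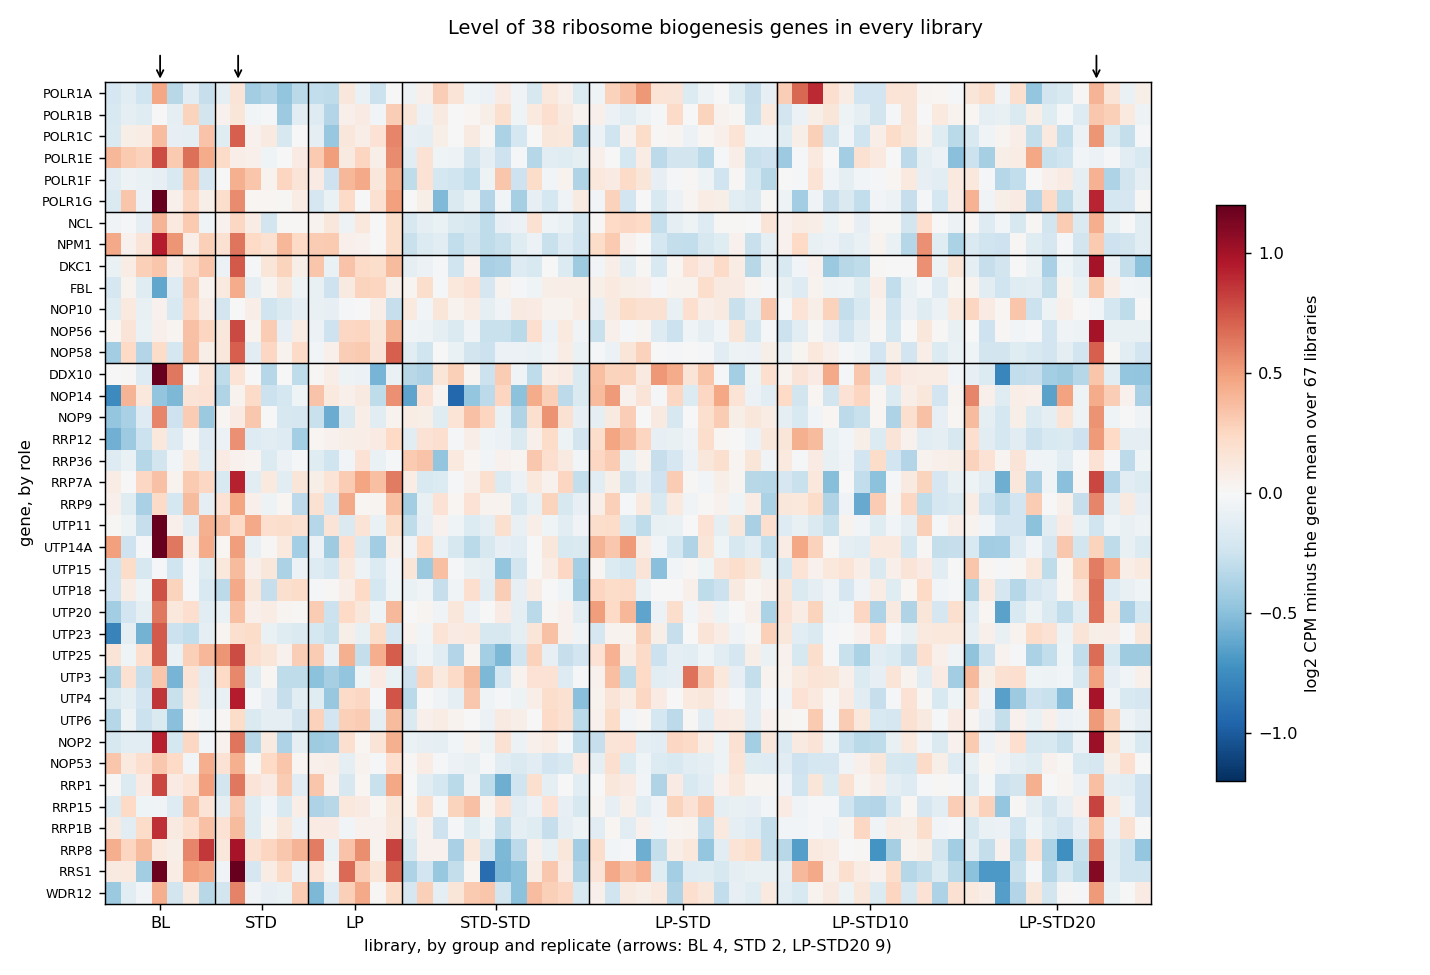
Level of 38 genes (rows, by role; NOP16 left out as barely detected) in all 67 libraries (columns, by group). Colour is log2 CPM minus the mean of that gene over the libraries, with the colour scale capped at both ends. Arrows mark BL replicate 4, STD replicate 2 and LP-STD20 replicate 9, which appear as red columns across most roles.

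The profile of the 3 libraries differed by role. RRS1, a factor of the large subunit, was at 27.4 CPM in BL replicate 4, 29.7 in STD replicate 2 and 25.9 in LP-STD20 replicate 9, where the medians of the 3 groups were 13.1, 12.2 and 10.1. In STD replicate 2 and LP-STD20 replicate 9 the proteins of the small nucleolar RNA particles were high too: their mean log2 level was 5.29 and 5.35, against 4.72 to 4.85 and 4.51 to 4.78 in the other libraries of each group. In BL replicate 4 that mean was 4.76, within the 4.59 to 5.05 of the other BL libraries, and FBL, the methyltransferase of the box C/D particles, had its lowest value of all libraries there, at 21.4 CPM. BL replicate 4 was instead highest in UTP14A (81.1 CPM), UTP11 (41.8 CPM) and DDX10 (14.8 CPM), 3 factors of the small subunit.

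Other genes moved in these libraries as well. Ribosome assembly factors outside the set were high in all 3 libraries: the mean log2 level of 53 other large subunit factors was 4.56 in BL replicate 4, 4.57 in STD replicate 2 and 4.58 in LP-STD20 replicate 9, above every other library of their groups (highest 4.23, 4.14 and 4.13). Ribosomal protein genes were highest of their group in STD replicate 2 alone, with a mean log2 level of 7.81 (7.47 to 7.66 in the other STD libraries). Their mean was 7.59 in BL replicate 4 and 7.21 in LP-STD20 replicate 9, inside the 7.38 to 7.92 and 7.09 to 7.43 of the other libraries. ANKRD1, a stretch-responsive muscle gene chosen after its values were seen, reached 1808 CPM in STD replicate 2 (3.05 to 397 in the other STD libraries) and 3137 CPM in LP-STD20 replicate 9 (88.2 to 426 in the rest), but 16.9 CPM in BL replicate 4 (5.75 to 176 in the rest). FBXO32, an ubiquitin ligase of muscle atrophy chosen in the same way, was at 1520 CPM in BL replicate 4 against 12.4 to 39.5 in the other BL libraries. RUNX1, SRXN1, PDK4, XIRP1 and DDX21, chosen likewise, were above the rest of the group in all 3 libraries. SRXN1 was at 56.7 CPM in BL replicate 4, 38.6 in STD replicate 2 and 44.7 in LP-STD20 replicate 9 (highest of the others 8.19, 8.64 and 18.9). MYC was above the rest in LP-STD20 replicate 9 only, and ATF3 there and in STD replicate 2. Cell division markers had a mean log2 level of -0.02 in BL replicate 4, the lowest of all libraries, and 2.53 and 1.98 in STD replicate 2 and LP-STD20 replicate 9, within the range of their groups. Macrophage markers had a mean log2 level of 4.41 in BL replicate 4 (1.57 to 3.77 in the other BL libraries), and fibroadipogenic markers one of 6.86 (8.09 to 9.07 in the others). Muscle fibre (14.1), endothelial (5.01), satellite cell (2.33), neural and nerve (2.85) and erythroid (-0.87) markers were also below all other BL libraries there. In LP-STD20 replicate 9 neural and nerve (4.41), adipocyte (4.67) and endothelial (5.52) markers were above the rest (highest 3.24, 4.40 and 5.51). Fibroadipogenic markers in STD replicate 2 (8.24) were below the other STD libraries (8.40 to 8.75). Other marker lists lay within the range of their group. The part of these genes in the levels of the set was not tested. The comparisons whose groups hold these libraries were also run without them, a choice made after seeing the data. The count of changed genes then moved from 10 to 6 in STD-STD against STD, from 2 to 0 in STD against BL and from 7 to 12 in LP-STD20 against LP. It stayed at 2 in LP against BL, where RRP12 passed and UTP14A did not (-0.39, edgeR adjusted p = 0.0877), at 1 in LP-STD20 against LP-STD, and at 0 in LP against STD, the interaction and LP-STD20 against LP-STD10 and against STD-STD. In the remaining comparisons neither group holds one of these libraries. The share of all genes that passed was not set beside these counts.

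**Figure D2:**
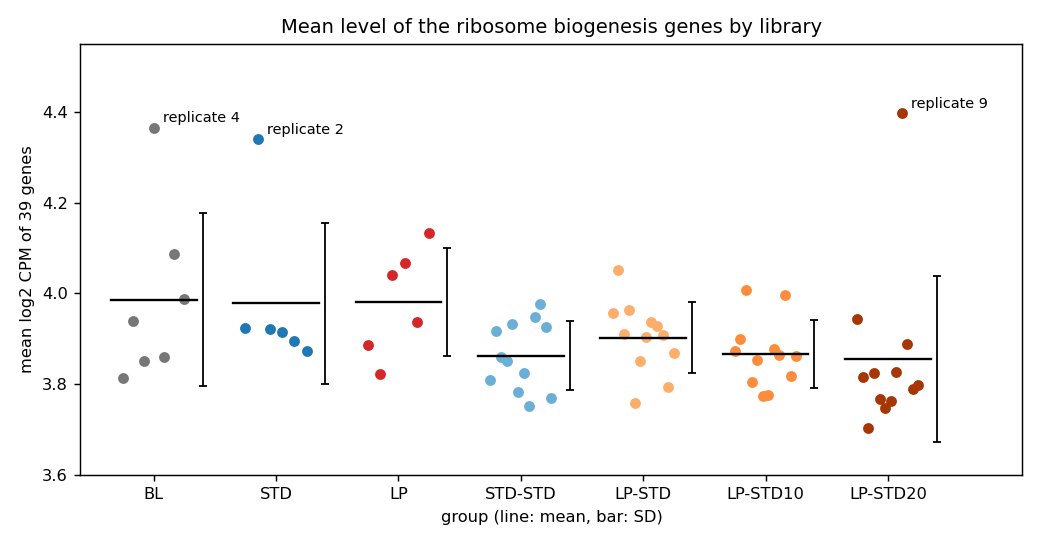
Mean log2 CPM of the 39 genes in each library (points), by group, with the group mean (line) and SD (bar). BL replicate 4, STD replicate 2 and LP-STD20 replicate 9 lie above 4.3, and the next highest, LP replicate 6, is at 4.13.

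The second period against the first, on the standard diet, gave 10 changes in the set. From STD to STD-STD 10 of 39 genes fell and none rose, or 25.6% of the set, where 7.89% of all genes fell, 8.01% rose and 15.9% changed in either direction. The median log2 difference of the set was -0.13, with 28 of 39 genes below 0, and that of all genes was -0.01. The genes that fell came from every role: 1 of 6 polymerase subunits, 1 of the 2 nucleolar proteins, 3 of 5 particle proteins, 1 of 17 small subunit factors and 4 of 9 large subunit factors.

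NPM1, a nucleolar chaperone of ribosome assembly and export (chromosome 16, 52767263 to 52781862 in Sscrofa11.1), was at 149, 155 and 206 CPM in STD (lowest, median, highest) and at 106, 112 and 125 CPM in STD-STD. Every STD library lay above every STD-STD library. The log2 difference was -0.53 ± 0.10 (edgeR adjusted p = 0.000101). RRP8, which methylates an adenine of the large subunit RNA (chromosome 9, 3152162 to 3169380), went from 7.77, 8.65 and 14.0 CPM to 4.83, 6.39 and 7.75 CPM, again with no overlap (-0.55 ± 0.15, edgeR adjusted p = 0.00624). NPM1 and RRP8 were 2 of the 39 genes whose groups did not overlap, and 2.43% of all genes did not.

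The other falls were of genes whose groups overlapped. UTP25, a processome factor, was at 8.40, 9.62 and 14.0 CPM in STD and 5.56, 7.18 and 9.83 CPM in STD-STD (-0.52 ± 0.13). NOP53, which joins the large subunit precursor to the RNA exosome in yeast, was at 39.8, 45.3 and 52.9 CPM and 33.5, 37.2 and 42.0 CPM (-0.28 ± 0.07). The edgeR adjusted p was 0.00316 for UTP25 and 0.00291 for NOP53, and in both the STD-STD libraries filled the lower part of the STD range and the space under it.

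3 of the 5 proteins of the small nucleolar RNA particles fell, and none of the 3 passed without STD replicate 2. NOP58 and NOP56, which form the core of the methylating box C/D particles, differed by -0.33 ± 0.10 and -0.32 ± 0.11, and DKC1, the pseudouridine synthase of the box H/ACA particles, by -0.38 ± 0.12 (edgeR adjusted p = 0.0217, 0.0312 and 0.0266). NOP58 was at 25.6, 32.0 and 46.4 CPM in STD and 23.5, 26.7 and 30.0 CPM in STD-STD. STD replicate 2 held the highest STD value of all 3 genes, at 46.4 CPM for NOP58, 67.1 for NOP56 and 27.1 for DKC1. Without it the differences were -0.21, -0.18 and -0.25 (edgeR adjusted p = 0.189, 0.279 and 0.194), and the calls of NOP58 and DKC1 were also lost with limma voom. FBL, the enzyme of the box C/D particles, and NOP10, a partner of DKC1, did not pass, and FBL ran from 30.3 to 44.7 CPM in STD and 28.6 to 38.1 CPM in STD-STD.

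RRP1, RRS1 and POLR1F made up the remaining falls. RRP1, a large subunit factor, differed by -0.32 ± 0.11 (edgeR adjusted p = 0.0387). RRS1 differed by -0.55 ± 0.19 (adjusted p = 0.0425), and its STD values were 10.4 to 14.1 CPM apart from 29.7 in replicate 2. POLR1F, a subunit of the polymerase stalk, differed by -0.28 ± 0.10 (adjusted p = 0.0453). The catalytic core did not pass: POLR1A was at 16.4, 17.9 and 25.2 CPM in STD and 19.8, 22.9 and 27.8 CPM in STD-STD, and POLR1B at 12.9, 17.2 and 19.3 and 16.6, 18.5 and 20.1 CPM. NCL, an abundant RNA-binding protein of the nucleolus, was at 150, 179 and 207 CPM and 142, 163 and 198 CPM and did not pass.

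The count of 10 rested in part on single libraries. Without STD replicate 2 it was 3 (NPM1, NOP53 and UTP25), without STD replicate 5 it was 6, without the first or second run of 4 STD-STD libraries it was 5 or 4, and without all 3 high libraries it was 6, of which 5 fell (NPM1, NOP53, UTP25, RRP8 and UTP11) and POLR1A rose. The share of all genes that passed was not set beside these counts, so they do not show whether the set still exceeded it. NPM1, NOP53 and UTP25 stayed past the threshold in every alternative run for this comparison. Without STD replicate 2 their log2 differences were -0.46, -0.23 and -0.42, and the median of the set moved from -0.13 to -0.02. RRP8 differed by -0.40 without it (adjusted p = 0.0675).

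Markers of several cell types moved in the same comparison. Of 10 markers of dividing cells 4 fell (median log2 difference -0.63), and their summed level was 62.0 to 114 CPM in STD and 49.5 to 75.0 CPM in STD-STD, with all 10 detected. Of the other marker lists, 1 of 5 endothelial, 1 of 4 muscle fibre and 1 of 6 lymphocyte markers fell (VWF, ACTA1 and CD79A), and no marker rose. Without a call, the median log2 difference was -0.89 over 2 neural and nerve markers, -0.42 over 4 adipocyte markers, -0.13 over 5 fibroadipogenic markers, -0.04 over 3 satellite cell markers and 0.51 over 7 macrophage markers, and the 1 erythroid marker tested differed by -0.75. Of the other ribosome genes, 6 of 41 other small subunit factors fell and 1 rose, 6 of 53 other large subunit factors fell, and 2 of 14 exosome genes fell and 1 rose. IMP4, a processome protein, was the small subunit factor with the lowest p (-0.29 ± 0.05, edgeR adjusted p = 0.000101), and NSA2 the large subunit factor (-0.27 ± 0.08, adjusted p = 0.0101). Ribosomal protein genes fell in 44 of 51 cases, with a median of -0.38. MYC, a transcription factor that drives ribosome genes, differed by -0.60 ± 0.30 (adjusted p = 0.178) and UBTF, the factor that binds ribosomal DNA, by -0.10 ± 0.06 (adjusted p = 0.248). Without STD replicate 2 the falls were 2 of 41, 1 of 53, 2 of 14 and 43 of 51 in these lists of small subunit, large subunit, exosome and ribosomal protein genes. The part of other cell types in the result was not tested.

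**Figure D3:**
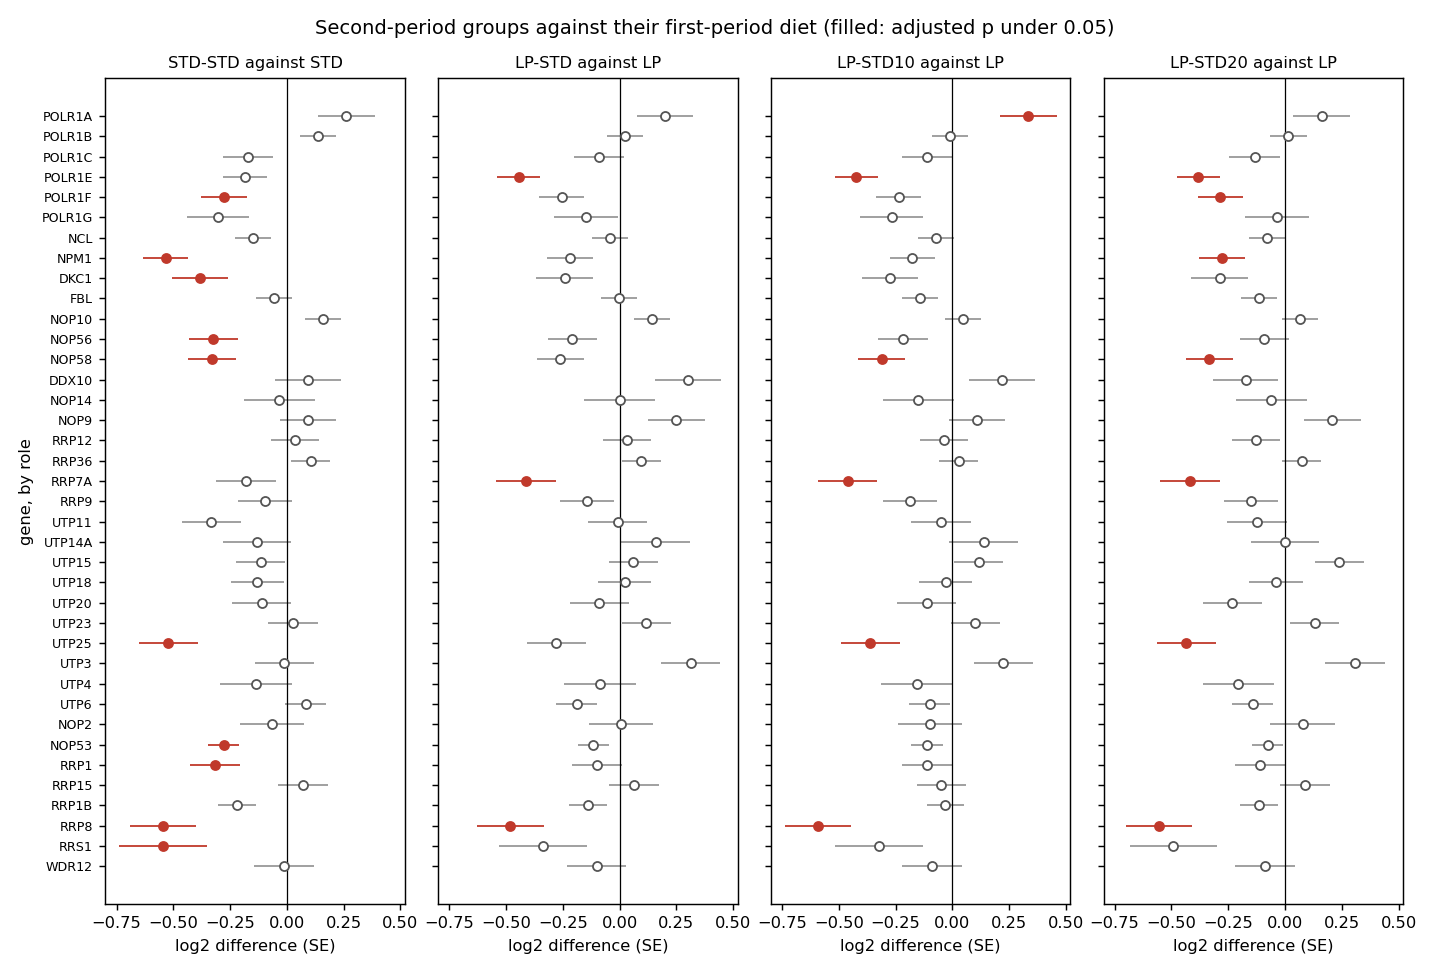
Log2 difference (point) and SE (bar) of 38 genes, by role, in each second-period group against the first-period group of the same diet history. Filled points had an adjusted p under 0.05; RRP8 is filled in all 4 panels. The 3 right-hand panels share the 6 LP libraries.

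After the low protein diet the same step from first to second period was made on 3 diets, each compared with the same 6 LP libraries. LP-STD10 and LP-STD20 against LP were added after seeing the data. From LP to LP-STD 3 of 39 genes fell (7.69%) and none rose, where 9.04% of all genes fell, 8.78% rose and 17.8% changed in either direction. From LP to LP-STD10 5 fell and 1 rose, where 9.31% of all genes fell, 9.62% rose and 18.9% changed in either direction. From LP to LP-STD20 7 fell (17.9%) and none rose, where 10.7% of all genes fell, 10.8% rose and 21.6% changed in either direction. No gene of the set had groups without overlap in any of the 3, where 3.65%, 2.52% and 3.28% of all genes did. The share of the set that fell was close to that of all genes in LP-STD. The median log2 differences of the set were -0.09, -0.11 and -0.11, and those of all genes were -0.03 in LP-STD, -0.01 in LP-STD20 and nearer 0 in LP-STD10.

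RRP8, RRP7A and POLR1E fell in each of the 3. POLR1E, a subunit that in yeast belongs to a pair built into the polymerase and aiding initiation (chromosome 1, 238197659 to 238219475), was at 11.3, 13.2 and 16.0 CPM in LP. It was at 8.59, 9.29 and 11.5 CPM in LP-STD, 7.60, 10.4 and 12.3 CPM in LP-STD10 and 8.17, 10.0 and 14.9 CPM in LP-STD20. The LP libraries lay in the upper part of the joint range, with overlap in every case. The log2 differences were -0.44 ± 0.09, -0.42 ± 0.10 and -0.38 ± 0.10 (edgeR adjusted p = 0.000567, 0.000965 and 0.0025).

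RRP8 was at 6.65, 9.69 and 12.5 CPM in LP, 4.68, 6.94 and 8.20 CPM in LP-STD, 4.27, 6.55 and 7.67 CPM in LP-STD10 and 4.21, 5.93 and 11.11 CPM in LP-STD20. Its log2 differences were -0.48 ± 0.15, -0.59 ± 0.15 and -0.55 ± 0.15 (edgeR adjusted p = 0.0151, 0.0025 and 0.00427). The highest LP-STD20 value was that of replicate 9, and the LP groups overlapped with all 3 second-period groups. RRP7A, a small subunit factor, was at 11.9, 14.3 and 17.5 CPM in LP and had medians of 10.8, 10.3 and 10.3 CPM in the 3 groups (-0.41 ± 0.13, -0.46 ± 0.13 and -0.42 ± 0.13, adjusted p = 0.0198, 0.00867 and 0.0158).

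NOP58 and UTP25 fell on both lysine diets, and NPM1 and POLR1F on the higher one. NOP58 (chromosome 15, 105893589 to 105930458) was at 27.4, 33.0 and 46.4 CPM in LP, 24.0, 27.4 and 30.8 CPM in LP-STD10 and 23.9, 25.1 and 46.2 CPM in LP-STD20. Its log2 differences were -0.31 ± 0.10 and -0.33 ± 0.10 (edgeR adjusted p = 0.0268 and 0.0158), against -0.26 in LP-STD, which did not pass. UTP25 differed by -0.36 ± 0.13 and -0.43 ± 0.13 (adjusted p = 0.0415 and 0.0119), and the call in LP-STD10 was lost in most alternatives, DESeq2 and RLE factors among them. NPM1 was at 132, 145 and 163 CPM in LP and 111, 115 and 164 CPM in LP-STD20 (-0.28 ± 0.10, edgeR adjusted p = 0.037). It did not pass in LP-STD10, where replicate 10 was at 192 CPM and the median was 125. POLR1F differed by -0.28 ± 0.10 in LP-STD20 (edgeR adjusted p = 0.031). That call was lost with only the groups compared, without LP replicate 3, 4 or 6, and without the first run of LP-STD20. Whether the lysine diets and LP-STD differ in these genes is tested below, and none of these genes did.

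POLR1A, which carries the active site of the polymerase, was the single gene of the set that rose, from 18.3, 20.2 and 25.0 CPM in LP to 19.3, 24.7 and 42.2 CPM in LP-STD10 (0.34 ± 0.12, edgeR adjusted p = 0.048). Its first run of 4 LP-STD10 libraries averaged 33.2 CPM and the other runs 22.1 and 23.5 CPM. Without that run the difference was 0.14 (adjusted p = 0.456), and the call was also lost without any single LP library other than replicate 3. POLR1B, the other catalytic subunit, was at 13.6, 17.7 and 21.5 CPM in LP and had medians of 17.0 to 17.6 CPM in the 3 second-period groups.

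LP replicate 6 held the highest LP value of RRP8, RRP7A, POLR1E, NOP58 and UTP25. Without it the counts were 1 of 39 in LP-STD (POLR1E), 3 in LP-STD10 (POLR1E, RRP8 and RRP7A) and 2 in LP-STD20 (POLR1E and RRP8). Without LP replicate 2, or without the first run of LP-STD libraries, the count in LP-STD was 5, and without the first run of LP-STD20 that in LP-STD20 was 3. Without LP-STD20 replicate 9 and the other high libraries 12 genes fell from LP to LP-STD20, with NOP56, DKC1, RRS1, UTP4 and UTP20 added. For these counts too the share of all genes was not set beside them.

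In these comparisons cell division markers fell too, in 9, 5 and 8 of 10 cases (medians -0.97, -0.67 and -0.86), from a summed 93.7 to 138 CPM in LP to 50.8 to 83.5 CPM in LP-STD, 50.9 to 201 CPM in LP-STD10 and 55.7 to 81.3 CPM in LP-STD20. LP-STD10 replicate 10 had a mean log2 level of cell division markers of 3.94, where the LP-STD10 median was 2.10. It also had the highest macrophage (5.02) and lowest muscle fibre (14.1) mean of its group. That library was left out only together with its run. Fibroadipogenic markers fell in 5, 3 and 4 of 5 cases and endothelial markers in 0, 3 and 2 of 5, and the 1 erythroid marker tested fell in each. In LP-STD20 1 of 7 macrophage and 1 of 3 satellite cell markers rose and 1 of 4 adipocyte markers fell. Ribosomal protein genes fell in 3, 7 and 9 of 51 cases, with 1 rise in LP-STD20 (medians -0.01, -0.09 and -0.12). IMP4 fell in each (-0.30, -0.35 and -0.35), as did TAF1C, a part of the factor that recruits the polymerase to ribosomal DNA (-0.44, -0.49 and -0.32). SBDS, a late factor of the large subunit, rose in each (0.43, 0.40 and 0.45). These single genes do not show what their lists did. The mean log2 level was 4.18 in LP and 4.11, 4.07 and 4.07 in the 3 groups for other large subunit factors. For other small subunit factors it was 3.79, and 3.72, 3.67 and 3.66. UBTF fell in LP-STD10 (-0.16 ± 0.06, edgeR adjusted p = 0.045), and MYC passed in none (-0.06 to 0.40). The part of these cell types in the falls was not tested.

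**Figure D4:**
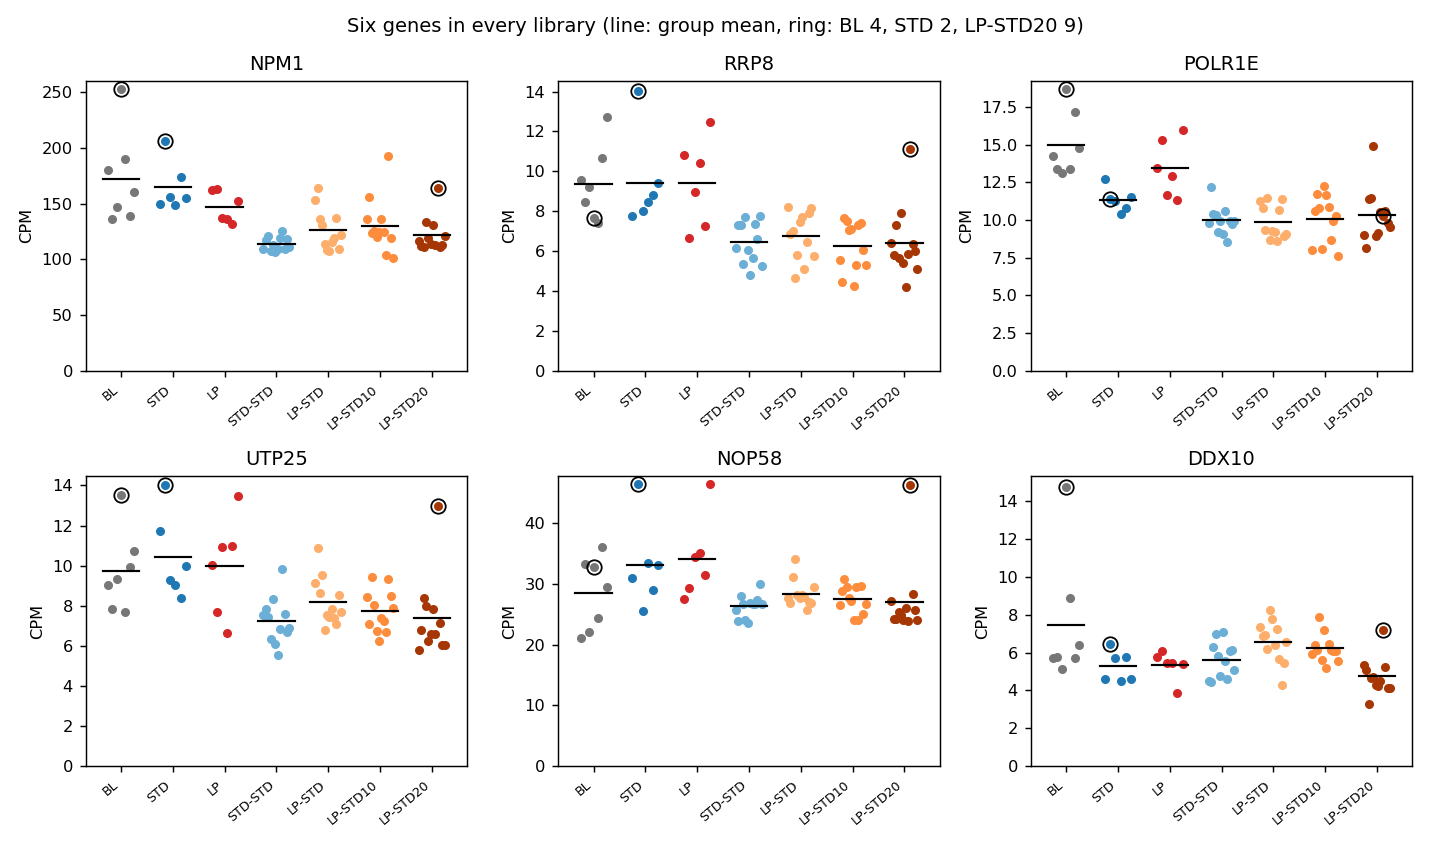
CPM (y axis from 0) of NPM1, RRP8, POLR1E, UTP25, NOP58 and DDX10 in every library, by group. Lines are group means and rings mark BL replicate 4, STD replicate 2 and LP-STD20 replicate 9. RRP8 has group means of 9.38 to 9.43 CPM in BL, STD and LP and 6.25 to 6.76 CPM in the 4 second-period groups.

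Across the 4 steps from first to second period, of which 3 share the LP libraries, 12 of the 39 genes fell at least once, and 17.5% of all genes did. RRP8 was the single gene of the set to fall in all 4, as 2.6% of all genes did. The log2 difference was below 0 in all 4 for 22 genes, against 32.8% of all genes. It was above 0 in all 4 for 5 (POLR1A, NOP9, NOP10, RRP36 and UTP23), against 28.6% of all genes. STD-STD against STD and LP-STD against LP use separate libraries, and RRP8 fell in both. It made up 1 of the 10 falls (10.0%) in the first and 1 of the 3 (33.3%) in the second. The difference between these steps was tested as an interaction and no gene of the set passed, where 0.163% of all genes did, 0.155% above 0 and 0.0074% below (edgeR; 3 at an unadjusted p under 0.05; 0 with DESeq2). NPM1 had the lowest p, with a fall smaller by 0.31 ± 0.14 after the low protein diet (adjusted p = 0.529). Ribosomal protein genes passed in 13 of 51 cases in that test, each with a value above 0.

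LP was compared with STD, the diets of weeks 1 to 4, over their 12 libraries. No gene of the set passed, and 0% of all genes did (edgeR; 2 of the 38 measured genes at an unadjusted p under 0.05). DESeq2 gave 0 in the set and 130 genes in all. The median log2 difference of the set was -0.02, with 21 of 38 genes below 0, and its values ran from -0.27 to 0.25. Without the 3 high libraries the median was 0.08.

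The 3 lowest p-values belonged to UTP11, POLR1E and NOP53. UTP11, a processome factor, was at 16.4, 16.9 and 19.9 CPM in STD and 11.4, 14.9 and 16.9 CPM in LP (-0.27 ± 0.10, edgeR adjusted p = 0.435). POLR1E was at 10.4, 11.3 and 12.7 CPM in STD and 11.3, 13.2 and 16.0 CPM in LP (0.24 ± 0.10, adjusted p = 0.497). NOP53 was at 39.8, 45.3 and 52.9 CPM in STD and 36.6, 40.7 and 45.1 CPM in LP (-0.17 ± 0.08, adjusted p = 0.572). The groups overlapped in every gene of the set.

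Of 51 ribosomal protein genes 50 were below 0 (median -0.26), though none passed singly. Other small subunit factors had a median of -0.03 (21 of 41 below 0), other large subunit factors -0.01 (29 of 53) and RNA exosome genes 0.00 (7 of 14). NPM1, at 132 to 163 CPM in LP and 149 to 206 CPM in STD, differed by -0.17 ± 0.10 and NCL by 0.03, neither past the threshold. MYC was at a mean of 15.6 CPM in LP and 27.8 CPM in STD (-0.83 ± 0.25, edgeR adjusted p = 0.31), and UBTF differed by 0.04 ± 0.08 (adjusted p = 0.926).

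**Figure D5:**
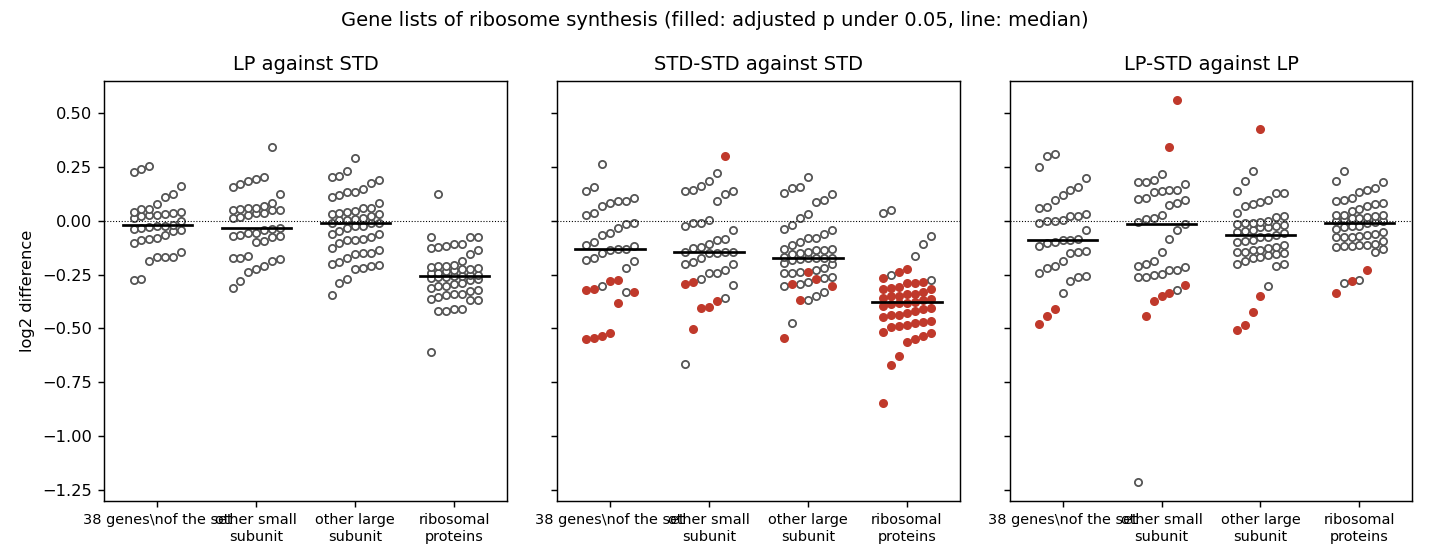
Log2 difference of each gene (point) in LP against STD, STD-STD against STD and LP-STD against LP, for 38 genes of the set, other factors of both subunits and the ribosomal proteins. Filled points had an adjusted p under 0.05 and lines are medians. The ribosomal proteins lie at a median of -0.26, -0.38 and -0.01, and the set at values closer to 0 in the first 2 panels.

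STD and LP were each compared with BL, and both comparisons share the 7 BL libraries. From BL to STD 2 of 39 genes fell (5.13%), where 4.08% of all genes fell, 2.62% rose and 6.7% changed in either direction. POLR1E was at 13.1, 14.3 and 18.7 CPM in BL and 10.4, 11.3 and 12.7 CPM in STD, with no overlap (-0.40 ± 0.11, edgeR adjusted p = 0.0139). It was the single gene of the set whose groups did not overlap, and 1.07% of all genes did not. DDX10, an RNA helicase of the small subunit (chromosome 9, 37006571 to 37265973), was at 5.13, 5.76 and 14.8 CPM in BL and 4.51, 5.17 and 6.43 CPM in STD (-0.51 ± 0.16, adjusted p = 0.0418). Without BL replicate 4 DDX10 differed by -0.26 (adjusted p = 0.319), and its call was also lost without BL replicate 5 or any single STD library other than replicate 2. In addition, without the 3 high libraries neither gene passed (POLR1E -0.34, adjusted p = 0.081).

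From BL to LP 1 gene rose and 1 fell, where 2.44% of all genes rose, 4.02% fell and 6.46% changed in either direction. The groups overlapped in every gene of the set, and 1.38% of all genes did not overlap. UTP6, a component of the processome, was at 10.9, 13.7 and 15.8 CPM in BL and 13.1, 18.7 and 20.0 CPM in LP (0.35 ± 0.10, edgeR adjusted p = 0.023). UTP14A, which activates a processome helicase in yeast, was at 22.0, 35.5 and 81.1 CPM in BL and 19.5, 24.0 and 30.1 CPM in LP (-0.67 ± 0.17, adjusted p = 0.00916). The highest BL value was that of replicate 4, without which UTP14A differed by -0.39 (adjusted p = 0.111). UTP6 did not pass without BL replicate 1 or 5, or LP replicate 1, 3, 4 or 6. Both counts of 2 ran from 1 to 5 when single libraries were left out, the highest without BL replicate 6, and were 0 when only the groups compared were fitted.

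The median log2 difference of the set from BL was 0.00 for STD and 0.01 for LP. Of 16 other polymerase I factors and regulators 5 fell from BL to STD and 3 from BL to LP. BL replicate 4 lay above all other BL libraries in 12 of the 16, and without it 2 fell from BL to STD and 1 from BL to LP. MAX, the partner of MYC, differed by -0.92 ± 0.22 in each comparison (edgeR adjusted p = 0.00465 and 0.00498), and by -0.34 and -0.35 without that library (adjusted p = 0.163 and 0.162). TAF1D, a part of the polymerase I selectivity factor, fell in both (-0.40 and -0.66), and without that library in LP only (-0.22 and -0.49, adjusted p = 0.249 and 0.00422). SIRT7, a nucleolar deacylase, fell in both (-0.42 and -0.53) and in neither without it (adjusted p = 0.217 and 0.0653). NHP2, a partner of DKC1, rose in both (0.49 and 0.43), and without it in STD only (0.39 and 0.32, adjusted p = 0.0205 and 0.075). Cell division markers rose in 1 of 10 cases in STD and 8 of 10 in LP.

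Within the second period the diets were compared over 48 libraries, so that the comparisons share groups. LP-STD against STD-STD, the earlier diet with the same diet now, gave no gene of the set past the threshold and 0% of all genes (edgeR; 4 genes of the set at an unadjusted p under 0.05; DESeq2 gave 0 in the set and 7 genes in all). NOP14, DDX10 and NCL had the lowest p-values, with differences of 0.29 ± 0.12, 0.22 ± 0.10 and 0.14 ± 0.06 (adjusted p = 0.408, 0.42 and 0.439). NCL was at 142, 163 and 198 CPM in STD-STD and 144, 177 and 208 CPM in LP-STD, and the groups overlapped.

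With 10% more lysine no gene of the set passed against LP-STD, where 0.407% of all genes did (0.0614% higher, 0.345% lower), nor against STD-STD, where 0.399% did (0.107% higher, 0.292% lower; edgeR, 1 and 3 genes at an unadjusted p under 0.05; 0 with DESeq2 in both). FBL had the lowest p against LP-STD: it was at 32.5, 34.5 and 38.0 CPM in LP-STD and 26.7, 31.2 and 34.8 CPM in LP-STD10 (-0.14 ± 0.05, adjusted p = 0.196). 9 of the 12 LP-STD10 libraries lay below every LP-STD library, and the other 3 lay within the LP-STD range. RRP1B, a large subunit factor, differed by 0.11 ± 0.06 from LP-STD (adjusted p = 0.367) and by 0.16 ± 0.06 from STD-STD (adjusted p = 0.188).

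With 20% more lysine DDX10 was the single gene of the set that passed, in LP-STD20 against LP-STD, where 0.0307% of all genes fell, 0.0153% rose and 0.046% changed in either direction. It was at 4.28, 6.73 and 8.23 CPM in LP-STD and 3.29, 4.57 and 7.21 CPM in LP-STD20 (-0.47 ± 0.10, edgeR adjusted p = 0.0413). The highest LP-STD20 value, 7.21 CPM, was again that of replicate 9, and the next groups in order, STD-STD at a median of 5.70 CPM and LP-STD10 at 6.11 CPM, lay between. DDX10 also had the lowest p in LP-STD20 against LP-STD10 (-0.39 ± 0.10, adjusted p = 0.41) and against STD-STD (-0.24 ± 0.10, adjusted p = 0.426), neither past the threshold. In those no gene of the set passed and 0% of all genes did (edgeR, 2 and 3 genes of the set at an unadjusted p under 0.05). DESeq2 gave 0 in the set in both, and 3 and 19 genes in all. The DDX10 call was lost without the first run of LP-STD, or without the first or second run of LP-STD20 (adjusted p = 0.0741 to 0.364), with only the groups compared (0.0786) and with limma voom allowing for correlated runs (0.284).

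Second-period libraries are numbered in runs of 4 consecutive libraries of a group, 3 runs a group. In a test over all runs 4 of the 39 genes differed between runs of the same group, where 5.68% of all genes did. They were POLR1A (edgeR adjusted p = 0.00376), RRS1 (0.00828), UTP14A (0.0145) and RRP12 (0.0394), a factor of both subunits' export in yeast. RRS1 averaged 15.4, 10.4 and 11.06 CPM in the 3 runs of LP-STD and 8.34, 10.4 and 14.3 CPM in those of LP-STD20. The last of these runs holds replicate 9, at 25.9 CPM, and its lowest library was at 10.2 CPM. UTP14A averaged 33.2, 24.4 and 23.3 CPM in the runs of LP-STD and 21.4, 25.9 and 25.1 CPM in those of LP-STD20. None of the 4 changed between second-period diets.

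Across libraries, after the mean of each group was taken away, the genes of the set varied together to a modest degree. Over 67 libraries the median Spearman rho of the 703 pairs of 38 genes was 0.21, with 622 pairs above 0, and the median over all pairs of tested genes was 0.00. Without the 3 high libraries the median was 0.15, with 540 pairs above 0. These values describe libraries that share depth and runs and carry no test. NOP2, a methyltransferase of large subunit RNA, and RRP15 had a rho of 0.63 (0.59 without the 3 libraries), and NPM1 and UTP14A one of 0.65 (0.58 without them). NOP53 had the lowest value of the 38, a rho of -0.11 with the mean of the others.

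Each gene was also set against the mean of the ribosomal proteins in the same way. This makes 38 relations, tested by 100000 permutations within groups (two-sided). Runs were not kept in the shuffling, so the permutation p-values do not allow for differences between runs and may be too small. In the test over all runs UTP14A differed (edgeR adjusted p = 0.0145). NPM1, RRP1 and NOP53 did not pass, which does not exclude run differences in them. NPM1 was at 131 to 164, 107 to 115 and 110 to 137 CPM in the 3 runs of LP-STD. The ribosomal protein mean was 7.38 to 7.54, 7.18 to 7.41 and 7.08 to 7.52 there. Run differences of that mean were not tested. NPM1 had the highest value (rho = 0.62, r = 0.48, permutation p = 1e-05, the smallest they can give, and 0.00041; adjusted 0.00038 and 0.00931). UTP14A followed (rho = 0.56, r = 0.45, permutation p = 4e-05 and 0.00206, adjusted 0.00076 and 0.0196). RRP1 (rho = 0.42, r = 0.45) and NOP53 (rho = 0.38, r = 0.42) also passed in both measures (adjusted permutation p = 0.0101 and 0.00931 for RRP1, 0.0242 and 0.0115 for NOP53), and no other gene did. Without the 2 libraries farthest from the median of the ribosomal protein mean r was 0.52 for NPM1, 0.49 for UTP14A, 0.45 for RRP1 and 0.38 for NOP53. Over the 19 libraries of BL, STD and LP alone r was 0.43, 0.46, 0.65 and 0.69 for these genes, and over the 48 second-period libraries 0.50, 0.46, 0.30 and 0.29. NPM1 and 44 of the 51 ribosomal protein genes also fell from STD to STD-STD.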

How the data were processed

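The authors deposited raw read counts per gene symbol for 67 libraries; per the submitters' processing notes they used genome build Sscrofa11.1 and DESeq2. Aligner, counter and strand setting were not given in the sources used here, so reads of overlapping genes or near-identical copies (NPM1 pseudogenes, for example) cannot be assigned with certainty; the span of 14 of the 36 members found in RefSeq overlaps another gene. Low even counts outnumber odd ones (18638 values of 2 against 3454 of 1).

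The main test was the quasi-likelihood F test of edgeR 4.0.16 (R 4.3.3), robust, after filterByExpr and TMM scaling, with Benjamini-Hochberg adjustment. LP against STD used 12 libraries (12584 genes), second-period comparisons 48 (13032) and the others all 67 (13517). Alternatives were RLE factors, DESeq2 1.42.0, limma 3.58.1 voom with correlated runs, other count filters, the replicate number as a block, only the groups compared and libraries left out; the fits were checked on simulated counts. Correlations and figures used Python 3.11.15 with scipy 1.17.1 and matplotlib 3.10.9.

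Members, lists and tests were chosen with earlier results of these data known. All members could be named. Full values follow a rule: POLR1A, POLR1B, NPM1, NCL, FBL, DKC1, RRS1, NOP56 and NOP58 in any comparison, up to 6 passing members per direction, or the 3 lowest p-values where none passed, and up to 4 passing genes of other lists.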

Additional observations from a re-analysis of the deposited data

Results flagged for a closer look

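In groups of 4 to 10 libraries, 78 combinations of 26 members with BL, STD or LP were examined for a library far from the others (Dixon's gap over range), and 15 had one. The 26 members are those given full values under the rule above, and some entered through a low p in comparisons of these same groups. Chance gives about 1 in 20, but the share was higher over all genes. A library stood apart in 9 of 26 members in BL (21.1% of all genes), 5 in STD (8.16%) and 1 in LP (7.07%). Since values helped to pick the members, these shares are not a like comparison and carry no test. BL replicate 4 was apart and high in DDX10 (14.8 CPM), NOP2 (48.5 CPM), POLR1A (31.4 CPM), POLR1G (21.7 CPM), RRP1B (32.1 CPM), UTP11 (41.8 CPM) and UTP14A (81.1 CPM), where the next BL library was at 8.89, 30.2, 20.9, 11.0, 22.3, 19.5 and 40.5 CPM. STD replicate 2 was apart and high in DKC1 (27.1 CPM), POLR1G (12.9 CPM), RRP7A (21.6 CPM), RRP8 (14.0 CPM) and RRS1 (29.7 CPM), where the next STD library was at 19.6, 10.1, 12.6, 9.41 and 14.1 CPM. BL replicate 6 was high in POLR1B (21.0 CPM, the next at 17.5) and POLR1F (12.5 CPM, the next at 9.48). LP replicate 5 was low in DDX10 (3.86 CPM, the next at 5.41). Their causes were not tested.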

How the results depend on the processing

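Of 817 alternative values of named genes, 727 stayed on their side of the threshold, 90 lost their call and none reversed. Counts that moved by over 1.5 times were as follows. STD against BL (2) gave 1 with no count filter, 1 with the replicate block, 1 with limma voom and correlated runs, 0 with only the groups compared and 0 without the 3 high libraries; LP against BL (2) gave 0 with only the groups compared. STD-STD against STD (10) gave 4 with voom and 6 without the 3 high libraries. LP-STD against LP (3) gave 5 without the LP libraries numbered 8 and 9. LP-STD10 against LP (6) gave 3 with voom. LP-STD20 against LP (7) gave 4 with only the groups compared and 12 without the 3 high libraries. LP-STD20 against LP-STD (1) gave 0 with voom and 0 with only the groups compared. The causes were not tested, and the share of all genes was not set beside the counts in this paragraph. When single libraries or runs were left out, counts ran from 1 to 5 for STD against BL and for LP against BL, 3 to 10 for STD-STD against STD, 1 to 5 for LP-STD against LP, 3 to 6 for LP-STD10 against LP, 2 to 9 for LP-STD20 against LP and 0 to 1 for LP-STD20 against LP-STD, and were 0 throughout for the other comparisons. Replicate numbers were not used to pair the libraries in the main test, since in no comparison did every same-number pair correlate above 0.1. That rule cannot exclude a weaker pairing. In LP-STD against STD-STD 6 of 12 same-number pairs were above 0.1, with a median of 0.084 against -0.0052 for different numbers. The replicate block moved no other count by over 1.5 times. Leaving out the 3 libraries, singly or together and for the other gene lists too, the second-period runs in comparisons across periods, and LP-STD10 and LP-STD20 against LP were chosen after seeing the data. With 6 libraries in STD and LP, small differences between them may not have been detectable.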
